A study of Caenorhabditis elegans with 2 samples.

Results

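The regions described here are the 464 chromosome X members of the 2000 candidate regions with the highest ChIP-seq signal for LIN-39 in L4 larvae of *Caenorhabditis elegans*. They were selected on that signal: the deposited pooled list of 30000 candidates was sorted by signal value, the first 2000 were kept, and those on X were taken. The remaining 1536 of the first 2000 lie on the autosomes, and 5880 other X candidates lie below the cut-off. Both samples, biological replicates 1 and 2, were whole larvae of mixed sex from strain OP18, with genotype *unc-119(ed3)* III and the insertion *wgIs18*, a transgene for LIN-39 joined to the eGFP tag, and the antibody is labelled *lin-39*. The study has 1 group and no comparison between conditions. The labels call the samples biological replicates and name neither the promoter of the transgene nor the share of each sex. Labels name the whole organism, so no tissue could be checked against markers, and signal from few cells or from many cannot be told apart.

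LIN-39 is a Hox protein, a homeodomain transcription factor of the mid-body, known for its work in vulval precursor cells, in migrating neuroblasts and in ventral cord neurons. Hox proteins commonly bind DNA together with PBC-class homeodomain partners. Chromosome X of this worm has a regulatory system of its own: in XX animals the dosage compensation complex, a condensin-containing assembly, lowers X transcription. It is loaded at recruitment elements on X, which carry a GC-rich motif enriched on X whose central letters are GCGCAGGG, called the recruitment core below. GAGAGA repeats are common in worm promoters and at sites where many factors give ChIP-seq signal.

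Short sequence words recurred around the summits of the members at the top of the ranking. The recruitment core lay within 100 bp of the summit, on either strand, in 13 of the 464 members, at 16 sites. It was at 0 of the 1536 autosomal regions of the first 2000, 4 of the 5880 other X candidates and 27 of all 30000 candidates (0.09%). Of the 13 members, 10 were among the 25 X members of highest signal. Each of the 16 sites is given with 10 bases to either side, read 5′ to 3′ on its own strand from the RefSeq genome of build ce11 (WBcel235), with the core in capitals, so that the neighbouring bases can be compared.
W02H3.3, chrX:11094115-11094142, minus strand: gttttatatcGCGCAGGGagcttatgca
W02H3.3, chrX:11094216-11094243, minus strand: ggaaccattcGCGCAGGGacacctcact
Y41G9A.17, chrX:2997113-2997140, minus strand: taaatttatcGCGCAGGGaggaagtagc
F22H10.2, chrX:16682162-16682189, minus strand: agaaaacatcGCGCAGGGaacatcaaat
nspc-17, chrX:14525890-14525917, minus strand: attgcctatcGCGCAGGGacagatgtgg
xol-1, chrX:8036391-8036418, minus strand: attttttatcGCGCAGGGacgtatgtcg
xol-1, chrX:8036425-8036452, plus strand: tttttccatcGCGCAGGGaacccttcga
ins-39, chrX:1345046-1345073, plus strand: aatgtcattcGCGCAGGGcagctgagcc
F20B6.9, chrX:4209256-4209283, minus strand: tgccgctatcGCGCAGGGacacctcttt
gtr-1, chrX:806664-806691, plus strand: tgcgattatcGCGCAGGGgtgtttgttg
mom-1, chrX:6296538-6296565, plus strand: tttacatttgGCGCAGGGggtcaccata
mom-1, chrX:6296566-6296593, plus strand: gataggtatcGCGCAGGGaagatttacc
Y41G9A.17, second region, chrX:2997288-2997315, minus strand: agatcgtatcGCGCAGGGaggaagtatg
C41A3.2, chrX:5429580-5429607, plus strand: attaaatttaGCGCAGGGaggacgccgt
T24D8.6, chrX:2364889-2364916, minus strand: aaataattaaGCGCAGGGatatatagta
col-185, chrX:13514548-13514575, plus strand: tacctttatcGCGCAGGGatattgaaat

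The bases next to the core were alike as well. In 11 of the 16 sites TC stood directly before the core and A directly after it. Elsewhere on X the core occurred 65 times, with TC before and A after at 2 sites, and on the autosomes 233 times, again at 2 sites. The regions had been chosen by signal and these neighbouring bases were noticed in the printed sites, so the counts are a description. The core is only the central part of the recruitment motif, and the neighbouring bases can belong to that motif. They are not read as a feature of LIN-39 regions. Chromosome X held 81 core matches in all, or 4.57 per Mb, and the other chromosomes between 2.06 and 3.34 per Mb. Of the 81, 19.8% lay within 100 bp of a member's summit. Of the 233 autosomal matches, 11 lay within 100 bp of any candidate and 0 within 100 bp of an autosomal region of the first 2000.

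The whole sequence around the strongest summits shows further shared words. The next lines give 201 bases centred on the summit of 4 of the 8 highest members, on the plus strand of ce11. Capitals mark the recruitment core, the core variant GCGAAGGG and the word TATCCACA, each on either strand.
W02H3.3, chrX:11094118-11094318: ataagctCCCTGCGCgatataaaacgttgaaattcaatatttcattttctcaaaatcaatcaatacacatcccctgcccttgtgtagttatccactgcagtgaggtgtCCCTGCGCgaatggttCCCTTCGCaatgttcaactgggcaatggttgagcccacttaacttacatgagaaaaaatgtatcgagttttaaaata
K02D3.1, chrX:13700753-13700953: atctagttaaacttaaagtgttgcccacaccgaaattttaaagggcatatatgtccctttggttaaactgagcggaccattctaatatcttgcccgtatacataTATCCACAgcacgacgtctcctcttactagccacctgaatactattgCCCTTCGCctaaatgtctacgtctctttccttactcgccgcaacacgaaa
Y41G9A.17, chrX:2997007-2997207: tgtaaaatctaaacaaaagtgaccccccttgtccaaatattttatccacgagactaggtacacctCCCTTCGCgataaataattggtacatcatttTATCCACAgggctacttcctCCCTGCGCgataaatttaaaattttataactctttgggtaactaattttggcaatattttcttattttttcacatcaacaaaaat
xol-1, chrX:8036247-8036447: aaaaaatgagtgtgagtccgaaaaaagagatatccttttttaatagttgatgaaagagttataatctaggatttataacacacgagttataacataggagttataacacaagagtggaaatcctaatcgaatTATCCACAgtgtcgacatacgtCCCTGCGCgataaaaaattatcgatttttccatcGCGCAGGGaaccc

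The core variant GCGAAGGG, a single mismatch from the core, lay within 100 bp of the summit in 7 of the first 25 members and in 4 of the 439 members after them. It was found at 0 of the 1536 autosomal regions of the first 2000, 6 of the 5880 other X candidates and 38 of all 30000 candidates (0.127%). TATCCACA lay within 100 bp of the summit in 8 of the first 25 members, in 2 of the later 439, in 8 of the 1536 autosomal regions and in 23 of the 5880 other X candidates. Of all 30000 candidates, 162 (0.54%) had TATCCACA there. Among the 55 autosomal regions that share the pooled ranks of the first 25 members, neither word was found, which allows shares of up to 6.53% (upper bound of the 95% Wilson interval). Both words were picked after the members' sequences had been read, so these counts describe the sites they came from. Unlike the core, TATCCACA was no more frequent on X, at 25.8 matches per Mb, than on the autosomes, at 24.98 to 27.9 per Mb. GCGAAGGG occurred at 7.90 matches per Mb of X and at 5.15 to 7.72 per Mb of the autosomes.

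Of the 10 members with TATCCACA, 9 are shown next, read on the strand of the word with 10 bases to either side, because the base before the word and the base after it can then be compared. They are given in order of signal, and the last 2, nearest to *nhr-137* and *actl-1*, stand far down the ranking, as the members ranked 349 and 367 on X.
K02D3.1, chrX:13700847-13700874, plus strand: cgtatacataTATCCACAgcacgacgtc
Y41G9A.17, chrX:2997093-2997120, plus strand: tacatcatttTATCCACAgggctacttc
F22H10.2, chrX:16682180-16682207, minus strand: tcaaaagtttTATCCACAagaaaacatc
T27A8.7, chrX:16056503-16056530, plus strand: ccatattgatTATCCACAgaatgtgcaa
xol-1, chrX:8036369-8036396, plus strand: ctaatcgaatTATCCACAgtgtcgacat
ins-39, chrX:1345027-1345054, plus strand: catatacattTATCCACAcaatgtcatt
F56C3.1, chrX:1389611-1389638, plus strand: accttttataTATCCACAcgtttcaaaa
nhr-137, chrX:6670406-6670433, plus strand: attactttatTATCCACAtgttaacaac
actl-1, chrX:6496939-6496966, minus strand: cagtctttacTATCCACAttttttcata

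Of the first 25 members, 14 carried the core, its variant or TATCCACA, and 6 of the 8 members with TATCCACA also had the core or the variant. A further 5 carried GAGAGA alone, and 6 had none of the 4 words within 100 bp. The summit was in a promoter in 2 of the 14 members with these words and in 5 of the 11 members without them. Over all 464 members the share was 18.8%, and over the other X candidates 18.1%. The groups are small and the words were picked from these sequences, so nothing is read from the difference. A summit was counted in a promoter where it lay between 1000 bp upstream and 200 bp downstream of the 5′ end of a protein-coding gene.

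The strongest member, which is also the strongest candidate of the whole pooled list, spans chrX:11094046-11094389 in intergenic sequence, 3968 bp downstream of the 5′ end of *W02H3.3*. Relative signal, the deposited signal value divided by the median of its own list, was 8.30 in replicate 1 and 11.7 in replicate 2, or 10.01 ± 2.42 (SD, n = 2). It ranked 2 and 1 among the 30000 regions of each replicate, so both placed it at the top. The member nearest to *K02D3.1* lay 6054 bp upstream of that gene and ranked 1 in replicate 1 and 6 in replicate 2. Its relative signals of 8.83 and 8.36 were the closest of the 3 highest members, with a mean of 8.59 ± 0.329 (SD, n = 2). It has no exact core, and carries the variant and TATCCACA.

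The third member lies in an intron of *Y41G9A.17* at chrX:2996935-2997278, and the replicates were far apart on it. Its relative signal was 4.20 in replicate 1 and 10.8 in replicate 2, a mean of 7.51 ± 4.69 (SD, n = 2) and the largest SD of the 400 members found in both replicates. A second member in the same intron overlaps it, with its summit 199 bp away and a core of its own. That region ranked 73 in the pooled list and 16 in replicate 2, with a relative signal of 5.08, and had no region within 200 bp in replicate 1. The 2 overlapping regions share reads and are not independent.

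*F22H10.2* and *nspc-17*, a nematode-specific peptide gene, are nearest to the members ranked 4 and 5 on X. The *F22H10.2* member had relative signals of 6.94 and 8.38 in replicates 1 and 2. At the *nspc-17* promoter, 746 bp upstream of the gene, the values were 5.01 and 8.81. Both regions stood within the first 10 of each replicate. For *ZK899.6* the values were 5.96 and 7.43, and for *T27A8.7* they were 4.67 and 6.34, again with all ranks at 10 or better.

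The member ranked 8 on X is nearest to *xol-1*, which sets male fate early in development and keeps dosage compensation off in males. The region spans chrX:8036175-8036518 and its summit lies 4966 bp upstream of the gene, in intergenic sequence. Relative signals were 5.69 and 4.89 in replicates 1 and 2, with ranks of 6 and 18 and a mean of 5.29 ± 0.568 (SD, n = 2). It carries core sites on both strands, 58 and 92 bp from the summit, and TATCCACA 36 bp from the summit, all on the same side. *sdc-2*, which acts to bring the dosage compensation complex to X, was the only other gene of the sex determination and X counting list near a member. That makes 2 of the 7 X genes of the list, against 13.1% of all X protein-coding genes. With 7 genes the share has a wide margin. The *sdc-2* region ranked 310 on X, and the replicates differed widely there, with ranks of 25796 in replicate 1 and 1852 in replicate 2.

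Other regions of the first 20 held a wide mix of genes. *mom-1*, which encodes the Porcupine enzyme of Wnt secretion, has a member in its intron with 2 core sites and relative signals of 3.31 and 4.75 in replicates 1 and 2. *ins-39*, an insulin-like gene, has one 604 bp upstream, at 2.70 and 5.13. Near *gtr-1* the values were 4.02 and 4.41, and near *F20B6.9* they were 2.89 and 5.38. The member nearest to *ZK813.5* lies inside *sax-3*, which encodes the Robo receptor of axon guidance, and had 3.11 and 3.00. *sma-9*, a Schnurri-type transcription factor of body size and mesoderm, has a member in an intron at 2.64 and 2.91, in which the replicates were close.

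*F19H6.5* and *ugt-50*, a UDP-glucuronosyltransferase gene, are nearest to the members ranked 9 and 10 on X, which have none of the 4 words within 100 bp. The *F19H6.5* member had relative signals of 6.22 and 3.67 in replicates 1 and 2, and the nearest core match lay 152 bp from its summit. At the *ugt-50* promoter the values were 4.12 and 4.30. The members near *F55G7.5*, at 2.64 and 5.02, and *serp-1.1*, at 2.76 and 3.75, also lacked the 4 words. With at most 1 mismatch, the core had 2 matches within 100 bp of the *F55G7.5* summit and none at *F19H6.5*, *ugt-50* or *serp-1.1*. *F09A5.3*, at 2.68 and 3.12, and *F56C3.1*, at 2.14 and 3.79, complete the first 20.

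**Figure D1:**
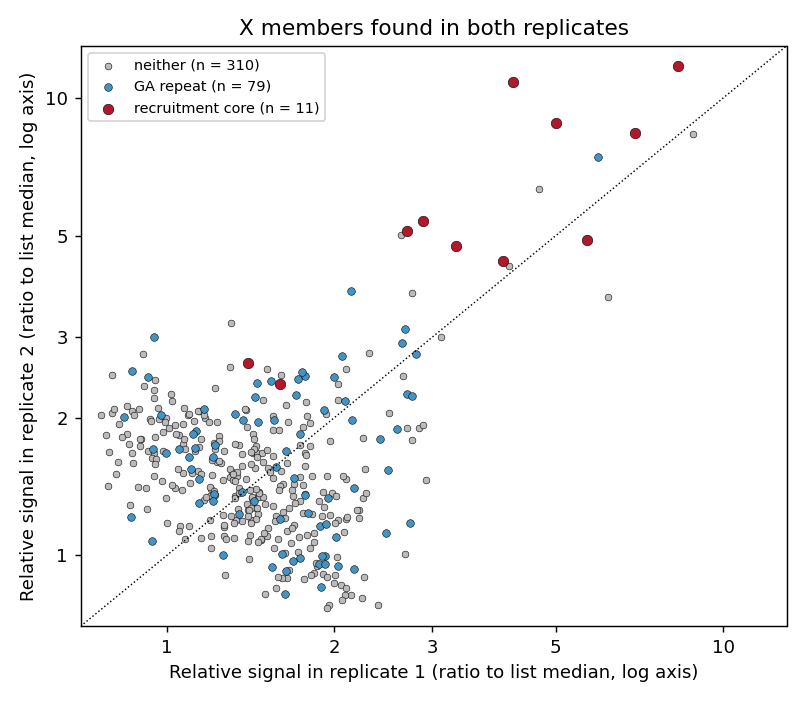
Relative signal of the 400 X members found in both replicates, as the ratio to each list's median on log axes, replicate 1 across and replicate 2 upward, with each point a region and the dotted line marking equal values. The members with a recruitment core (red, n = 11) mostly stand in the upper right, 10 of 11 of them above the line, while most others form a cloud below 3 on both axes.

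Below the first ranks, few members stood high in both replicates. Pooled signal at the members ran from 25.2 to 190, with a median of 27.98 in the members and in the autosomal regions of the first 2000, and the same cut-off applied to both. A region within 200 bp was present in both replicate lists for 400 members and in one of them for the other 64. The median rank was 2749.5 in replicate 1 (420 members) and 2019.5 in replicate 2 (444 members). At 157 members the rank in at least 1 replicate was beyond 10000. These ranks come from the samples that were pooled to choose the members, and the replicate lists share a control file.

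Among the highest 2000 of both replicates stood 63 of the 464 members, which is 13.6% (95% Wilson interval 10.8 to 16.995%). The share was 12.4% (10.9 to 14.2%) of the autosomal regions of the first 2000 and 0.88% of all pooled candidates. By rank, it held for 24 of the first 25 members, 18 of the next 25, 17 of the 50 after those, 4 of the following 100 and 0 of the last 264. Outside the first 25 members, 39 of 439 (8.88%) were in both. The authors' thresholded list on build ce11 contained 45 members, those ranked 1 to 45 on X, or 9.70% (7.33 to 12.7%). It contained 7.68% (6.45 to 9.12%) of the autosomal regions of the first 2000. Of all pooled candidates it contained 0.543%, and nothing is read from that difference, since all 163 of its regions are among the first 2000.

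At the 11 members with a core that were found in both replicates, relative signal was higher in replicate 2 in 10, where 218 of all 400 such members (54.5%) were higher in replicate 2. The other 2 core members had a region only in replicate 2. They are the second *Y41G9A.17* region and the one 3493 bp upstream of the collagen gene *col-185*, which ranked 88 in replicate 2. *C41A3.2* and *T24D8.6*, named because they complete the 13, ranked 1779 and 3770 in replicate 1 and 179 and 109 in replicate 2. The *C41A3.2* region lies 15199 bp from that gene, in a coding exon of *pks-1*, a polyketide synthase gene. What sets the replicates apart was not tested.

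At the cut-off the signal moved by little. Just inside it were the members nearest to *arrd-25* (25.24), *R08E3.1* (25.23) and *nas-37* (25.22). Outside it were the X candidates nearest to *latd-1* (25.21), *ptrn-1* (25.21) and *spp-30* (25.196). Replicate ranks on either side were scattered, as in *R08E3.1* with 667 and 11947 and *ptrn-1* with 17357 and 6953.

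**Figure D2:**
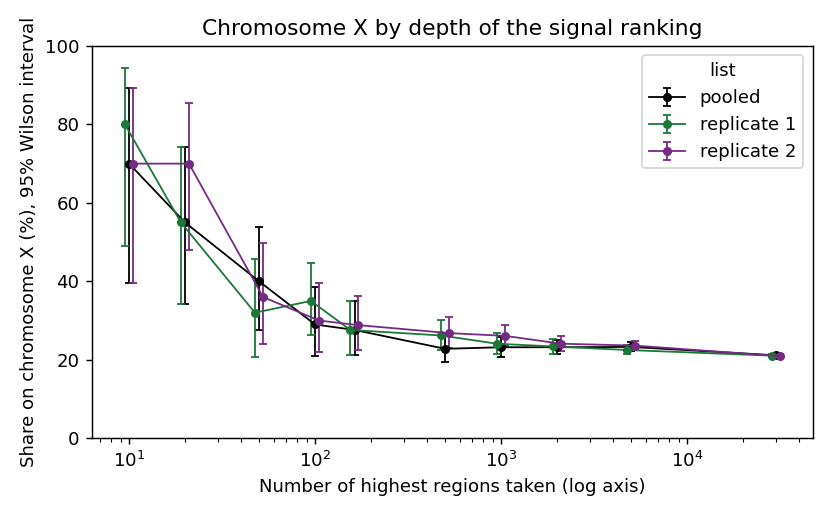
Share of regions on chromosome X among the highest regions of the pooled list and of each replicate list, by the number of highest regions taken on a log axis, with 95% Wilson intervals. The share was 70 to 80% among the first 10 and near 21% over all 30000 regions in each of the 3 lists.

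Chromosome X made up 23.2% (21.4 to 25.1%) of the first 2000 pooled regions, against 21.1% of all 30000 candidates and 17.7% of the length of the 6 chromosomes. The ranking was unevenly filled. X held 7 of the first 10 pooled regions, 11 of the first 20, 20 of the first 50 and 29 of the first 100, but 114 of the first 500, which is 22.8%. In replicate 1 it held 8 of the first 10 and in replicate 2 it held 7. The high share of X was therefore found among the first regions of every list, and the lists share reads and a control.

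**Figure D3:**
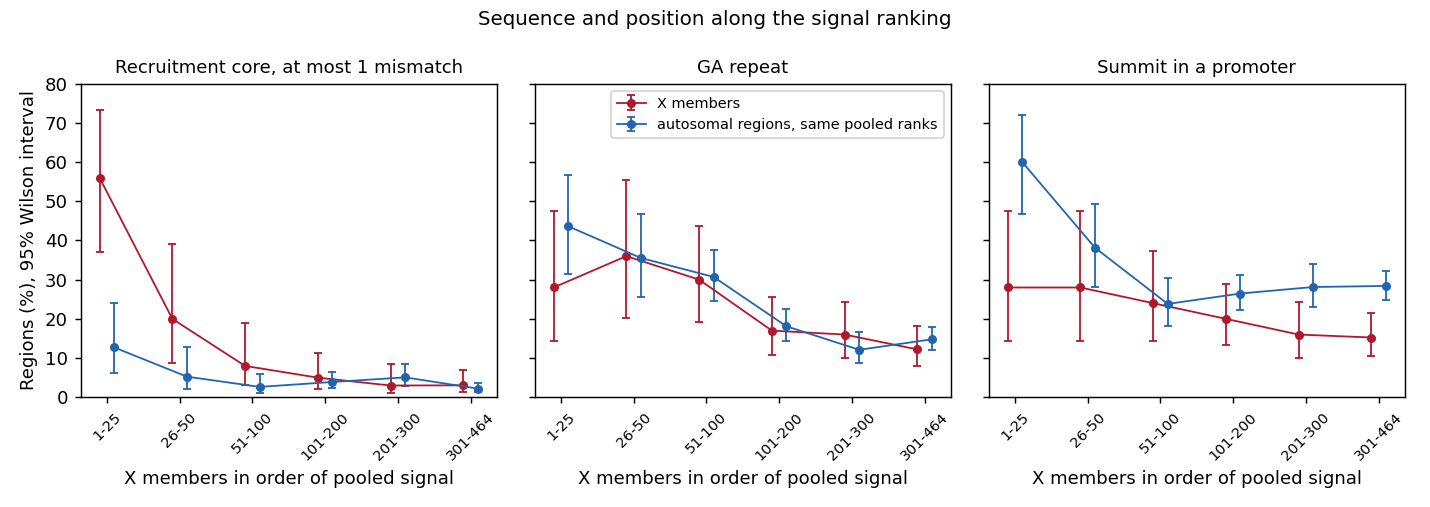
Share of X members (red) with the recruitment core at most 1 mismatch away, with a GA repeat and with the summit in a promoter, in 6 steps of the X ranking, beside autosomal regions of the same pooled ranks (blue), with 95% Wilson intervals. The core stands apart in the first 25 members (56% against 12.7%), the intervals of the GA repeat overlap in every step (28% against 43.6% in the first), and the promoter share of X members lies below that of autosomal regions in 5 of the 6 steps.

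With at most 1 mismatch, the core was present in 36 members, or 7.76% (5.66 to 10.6%), and in 3.65% (2.82 to 4.70%) of the autosomal regions of the first 2000. It was at 2.07% of the other X candidates and 2.39% of all pooled candidates. Around points 500 bp from the summit, in windows of equal total length, the shares were 2.16% in members and 2.60% in autosomal regions. By rank, 14 of the first 25 members had such a match, 5 of the next 25 and 4 of the following 50. Further down, 5 of the next 100 had one, 3 of the 100 after those and 5 of the last 164. The letters of the core in reverse order were found at 0 members, which allows a share of up to 0.821% (upper bound of the 95% Wilson interval). They were at 1 of the 1536 autosomal regions, 7 of the 5880 other X candidates and 14 of all 30000 candidates (0.0467%). At so low a share a count of 0 among 464 members tells little, and nothing is read from it. GC content within 100 bp of the summit had a median of 42.8% in the first 25 members and 44.3% in the 55 autosomal regions of the same ranks. Whether GC content bears on the core matches was not tested.

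GAGAGA gave another picture, with X members and autosomal regions close to each other. It was present in 84 members, or 18.1% (14.9 to 21.9%), and in 19.1% (17.3 to 21.2%) of the autosomal regions of the first 2000, against 8.997% of the other X candidates and 10.5% of all pooled candidates. In the flanks the share was 8.84% for members and 11.6% for autosomal regions. The share was 28% in the first 25 members, 36% in the next 25, 30% in the following 50 and 12.2% in the last 164. A core and GAGAGA were found together in 1 member, in *pks-1*. The 83 with GAGAGA and no core had a median GC content of 42.8% and lay in a promoter in 28.9% (20.3 to 39.4%) of cases. Those with neither, 368 members, had a median GC content of 32.8% and lay in a promoter in 16.6% (13.1 to 20.7%).

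The GAGAGA sites nearest to the summit are shown for 5 of the 6 highest members that have one, with 15 bases to either side, on the strand that reads GAGAGA. They differ from the core sites in that the neighbouring bases have no common word. In *sma-9* and *unc-115* further GA stretches stand nearby, separated from the marked letters by other bases.
F09A5.3, chrX:13145261-13145296, plus strand: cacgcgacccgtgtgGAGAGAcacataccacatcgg
sma-9, chrX:10771306-10771341, plus strand: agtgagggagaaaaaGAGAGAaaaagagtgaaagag
F56C3.1, chrX:1389517-1389552, plus strand: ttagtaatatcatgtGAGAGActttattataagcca
rpl-11.2, chrX:2243015-2243050, minus strand: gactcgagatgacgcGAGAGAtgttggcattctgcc
unc-115, chrX:10146708-10146743, plus strand: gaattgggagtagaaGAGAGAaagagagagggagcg

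**Figure D4:**
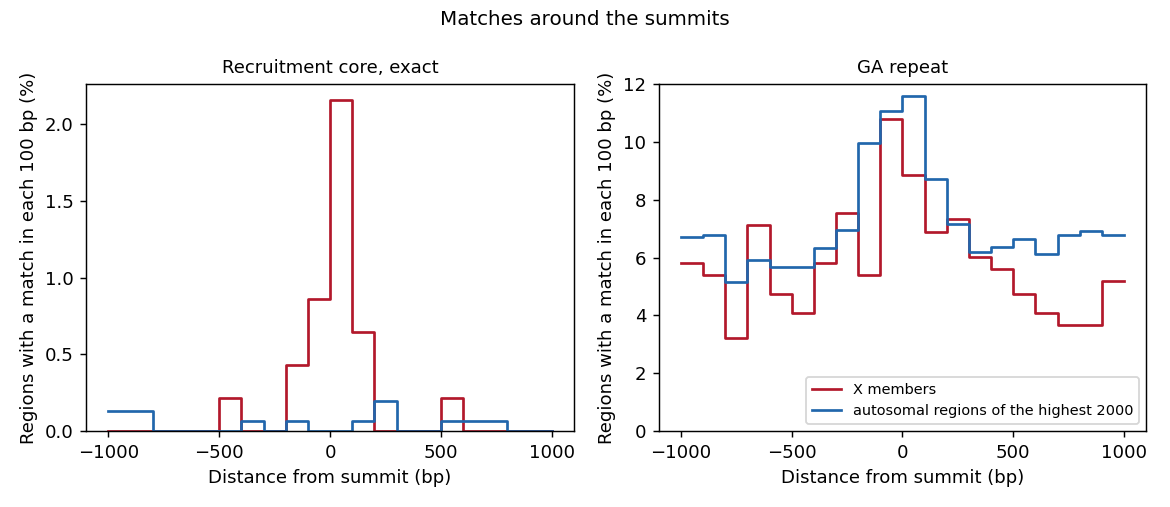
Share of regions with a match in each 100 bp from 1000 bp before to 1000 bp after the summit, for X members (red) and autosomal regions of the highest 2000 (blue), with the exact recruitment core at left and the GA repeat at right on their own scales. The core of X members is concentrated around the summit, 2.16% in the 100 bp after it, and the GA repeat reaches 8.84 to 10.8% in the innermost steps in X members and 11.1 to 11.6% in autosomal regions.

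At the summit, patterns known for Hox proteins were about as frequent in members as in the autosomal regions of the first 2000. The core of the composite site of Hox and PBC proteins, TGATNNAT, was present in 92 members, or 19.8% (16.5 to 23.7%), against 18.7% (16.8 to 20.7%) of the autosomal regions of the first 2000 and 16.9% of all candidates. Its share in the flanks was 10.99% (8.46 to 14.2%) for members and 15.9% for autosomal regions. In steps of 100 bp it was present in 9.27% of members just before the summit and in 12.1% just after it. The share was 11.4% from 300 to 200 bp before the summit, 11.2% from 700 to 600 bp before it and 4.53% from 500 to 400 bp before it. The step just after the summit was the highest, and steps away from the summit were both above and below the step just before it. Along the ranking it stayed between 15% and 22.6% of members. The homeodomain core TAATTA was present in 10.99% of members, 9.96% of the autosomal regions and 10.7% of all candidates. TGACAG, known for MEIS-class partners, was at 6.68%, 7.23% and 6.90%, and the GATA-type word TGATAA was at 16.4%, 18.2% and 19.3%. CAGCTG, an E-box word searched for comparison, was at 3.66%, 4.23% and 3.58%. For the 5 highest members with TGATNNAT, the site nearest to the summit is given on its own strand with 10 bases to either side.
W02H3.3, chrX:11094162-11094189, minus strand: ggatgtgtatTGATTGATtttgagaaaa
F22H10.2, chrX:16682195-16682222, plus strand: ataaaactttTGATCAATcctttcataa
ugt-50, chrX:12690641-12690668, minus strand: gcccatcacaTGATCGATggtgtcgaat
F55G7.5, chrX:11937479-11937506, minus strand: gggtgagtatTGATTGATtgtgaacaca
ZK813.5, chrX:3455762-3455789, minus strand: gtcccaacaaTGATAAATtgctggatcc

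A match to any of these words is a description of the letters and not a binding site.

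The members lay outside promoters more often than the autosomal regions of the first 2000, as X candidates did in general. Their summits were in a promoter in 87 cases, or 18.8% (15.5 to 22.6%), against 28.97% (26.8 to 31.3%) of the autosomal regions and 18.1% (17.1 to 19.1%) of the other X candidates. Intergenic sequence held 38.8% (34.5 to 43.3%) of members, 22.7% (20.7 to 24.9%) of the autosomal regions and 30.3% (29.1 to 31.5%) of the other X candidates. Coding exons held 7.54%, 10.9% and 12.9%, and introns 27.8%, 30.5% and 32.1%. The summit lay over 2000 bp from every protein-coding 5′ end in 49.6% (45.04 to 54.1%) of members, 41.0% (38.5 to 43.4%) of autosomal regions and 48.5% of the other X candidates. Beyond 5000 bp the shares were 15.7% and 14.8% in members and autosomal regions.

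**Figure D5:**
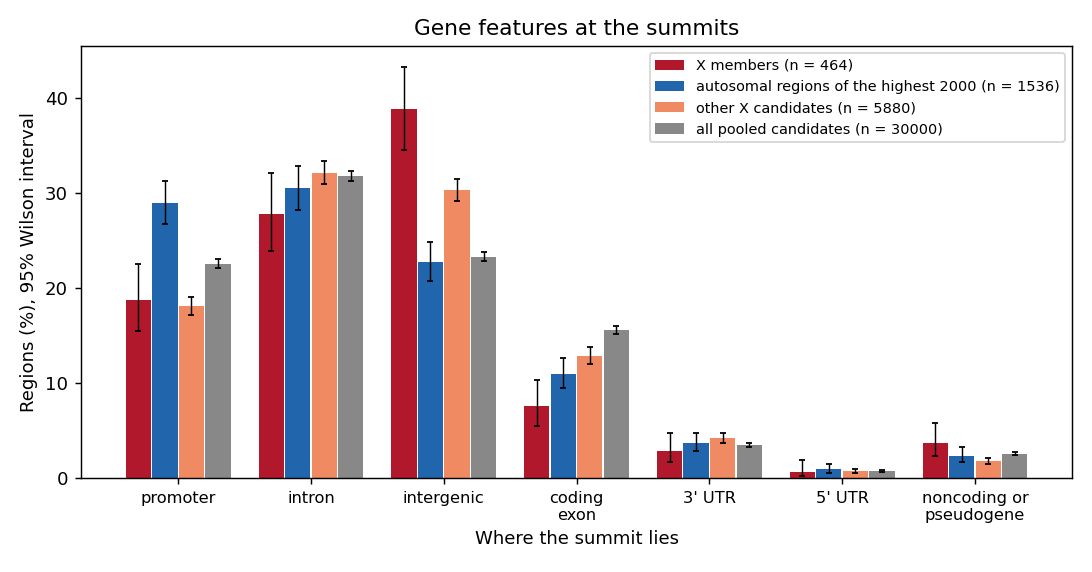
Share of summits in each gene feature for the X members (red), the autosomal regions of the highest 2000 (blue), the other X candidates (orange) and all pooled candidates (grey), as bars with 95% Wilson intervals. X members show the highest intergenic share, 38.8%, and a promoter share near that of the other X candidates, 18.8% and 18.1%.

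Small RNA genes were near few members. A tRNA gene lay within 200 bp of 9 members, or 1.94% (1.02 to 3.64%), of 0.456% (0.221 to 0.938%) of the autosomal regions of the first 2000 and of 0.901% of the other X candidates. X carries 276 of the 612 annotated tRNA genes, or 45.1%. The highest of the 9 members ranked 29 on X. Sequence that repeats elsewhere was rare: in 18 members not every 32-base stretch around the summit was unique in the genome, and in 0 members were fewer than 50% of them unique.

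The members were spread along the whole chromosome. Each full Mb of X held between 17 and 42 of them, with the highest number in the thirteenth Mb, where they made up 10.5% of its 399 candidates. The incomplete Mb at the right end held 10. Neighbouring summits were a median of 23703 bp apart, and the longest stretch without a member was 256566 bp. In 3 places members overlapped, and in 7 groups of 3 each summit lay within 5000 bp of the next, with the outer summits 1430 to 5546 bp apart. The group at *mig-13* had its highest region 2389 bp upstream of that gene, and another at *W02H3.3* held the strongest member of all. The remaining groups, named after they were found, lay near *F09E10.1*, *ttr-48*, *mdl-1*, *bar-1* and *epn-1*.

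Genes on X from written lists were looked up near the members, starting with the neuron and synapse list. Of the 2731 protein-coding genes on X, 357 (13.1%) had their 5′ end nearest to a member and within 5000 bp, and gene lists are read against that share. From the neuron and synapse list 8 of 30 X genes were near a member. *unc-115*, which encodes an actin-binding LIM protein of axon growth, had its highest region 168 bp upstream, with relative signals of 2.71 and 2.25 in replicates 1 and 2, or 2.48 ± 0.320 (SD, n = 2). *unc-18*, the Munc18 gene of synaptic vesicle release, had one 300 bp upstream, at 2.76 and 2.23. *unc-9*, a gap junction innexin, had one 4549 bp upstream, at 2.89 and 1.93. The other 5 were *unc-1*, *unc-10*, *mec-2*, *flp-3* and *mig-13*. The regions of *unc-115*, *unc-18* and *unc-9* ranked within the first 100 of replicate 1 and between 225 and 591 in replicate 2. The replicates were far apart on others of the list: the highest *unc-1* region ranked 22571 in replicate 1 and 125 in replicate 2, the *unc-10* region 63 and 8346, and the *flp-3* region 12776 and 1248. The *mec-2* region was found in replicate 2 alone.

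Of the Wnt and cell migration list, 5 of 8 X genes were near a member. *mig-13*, a transmembrane protein that guides migrating Q neuroblasts in the anterior body, had 3 members. The highest had relative signals of 2.66 and 2.47 in replicates 1 and 2, or 2.56 ± 0.138 (SD, n = 2), and the others ranked 287 and 289 on X. Beside *mom-1*, described above, *vab-3*, the Pax6 gene, had a member in an intron at 1.56 and 1.88. The other genes were *vang-1* and the β-catenin gene *bar-1*. Ranks in replicates 1 and 2 were 2085 and 700 at *vab-3*, 3292 and 922 at *vang-1*, and 7355 and 4255 at *bar-1*. With 8 genes in the list the share has a wide margin, and these lists were written with earlier results of the same data known.

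From the vulva and mesoblast list, 3 of 13 X genes were near a member. *egl-17*, an FGF gene expressed in vulval cells, had one 163 bp downstream of its 5′ end, with relative signals of 1.81 and 1.73 in replicates 1 and 2 and ranks of 763 and 1153, so the replicates were close. A core match lay 164 bp from its summit. This member is 1 of those with a tRNA gene within 200 bp of the summit. Of the 32-base stretches around its summit, 66.5% were unique in the genome. *hda-4*, a histone deacetylase gene, ranked 2149 and 17992, and *lin-2*, a polarity scaffold gene of the vulval pathway, had a region in replicate 2 alone.

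In the heterochronic list, 5 of 9 symbols were matched to annotated genes, and symbols without a match were not counted. Both of the matched genes on X, *lin-14* and the hunchback-like gene *hbl-1*, had a member within 5000 bp. The one in an intron of *lin-14* had relative signals of 1.54 and 2.40 in replicates 1 and 2, and the one 1861 bp upstream of *hbl-1* had 2.17 and 1.40. The replicates thus put them in opposite order. *lin-14* was the only gene with 3 members inside its body.

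Nuclear hormone receptor genes were near a member in 7 of 23 cases. The highest were *nhr-3*, at relative signals of 1.71 and 2.24 in replicates 1 and 2, *nhr-25*, a receptor known to act with LIN-39 in vulval cells, at 1.75 and 1.91, and *nhr-26*, at 1.43 and 1.85. In the muscle list 2 of 12 genes were near a member, the actin gene *act-4*, at 2.10 and 1.47, and *unc-97*, a LIM protein of muscle attachments, with a region in replicate 2 alone. Of the cuticle and body size list 2 of 7 were, *sma-9*, described above, and the glypican gene *lon-2*, whose member within 5000 bp ranked 441 on X. In addition, 2 members lie in *lon-2* introns, one ranked 186 on X and 7231 bp from the 5′ end of *lon-2*, and one ranked 26 on X and nearest to *aman-1*.

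The promoter of the ribosomal protein gene *rpl-11.2*, 1 of 2 such genes on X, had a member 362 bp upstream at relative signals of 2.80 and 2.76 in replicates 1 and 2, a mean of 2.78 ± 0.0324 (SD, n = 2). Shares at or below the 13.1% of all X genes were found for the collagens named *col* (3 of 27, *col-176*, *col-185* and *col-171*), the neuropeptide-like and insulin genes (2 of 21, *ins-39* and *nlp-14*), the gut list (1 of 11, *pgp-3*), the *ceh* homeobox genes (1 of 18, *ceh-18*), the histones (0 of 4) and the *twk* channels (0 of 10). A count of 0 of 10 or fewer genes does not show that such genes lack a region. Each gene was assigned by distance alone.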

How the data were processed

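Regions and their signal were deposited by the authors as peak lists on builds ce10 and ce11, each replicate and the pooled reads called against a control, which was the same file for both replicates, per the deposited text descriptions. Library size range was 150 to 350 bp, per the labels. No source used here names the aligner or the peak caller, or any version of them. Ranks, and relative signal after division by the list's median, rest on the deposited signal column, an enrichment value in the narrowPeak format of the files. The deposited q column reached below 0 and was treated as a score. It was not used for any result. No counts were given, so depth is unknown.

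Regions, 344 bp wide in the pooled list, were joined to the replicate list with the nearest summit within 200 bp. Sequence came from the RefSeq genome of ce11 (WBcel235) and genes from Ensembl release 115; 146 of 152 list symbols matched. Coordinates are 1-based. The search for words covered 100 bp to either side of the summit, and 2 flanks centred 500 bp away. Regions are not replicates of the experiment, so shares carry 95% Wilson intervals, for counting error over regions only, and no p-values. The members and the lists were chosen with earlier results of these data known. Genes named are the nearest to the 20 highest members, up to 3 per gene list, up to 10 with a core and 3 on each side of the cut-off; others were chosen after their values were seen. Functions were tested on simulated data. Software was matplotlib 3.10.9, scipy 1.17.1, pandas 2.3.3 and numpy 2.4.6 under Python 3.11.15. The sequence at 1 of the highest members is not reported here.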

Additional observations from a re-analysis of the deposited data

How the results depend on the processing

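Shares of members moved outside their 95% interval mainly with the number of regions taken. With the 163 highest regions in place of 2000, X made up 27.6%, 48.9% of its members were in the highest 163 of both replicates, 28.9% lay in promoters, 22.2% had the core and 31.1% GAGAGA. With 500 these were 30.7% for both replicates, 25.4% for promoters, 10.5% for the core and 30.7% for GAGAGA, and with 1000, 21.1% for both replicates, 5.17% for the core and 21.98% for GAGAGA. With 5000 the core was at 1.20% and GAGAGA at 13.1%. Without the first 25 members, a setting chosen after seeing the data, the share in both replicates was 8.88% and the core was at 0.683%. Promoters of 500 and 2000 bp gave 9.70% and 31.7%, promoters of all annotated genes 37.5%, and a distance of 5000 bp gave 15.7%. GAGAGA was at 10.8% within 50 bp and 26.1% within 200 bp, and the core with 1 mismatch at 7.76%. The cause of these changes was not tested. The promoter share of X members was below that of the autosomal regions in the 4 other numbers of regions and the 3 other promoter definitions, where both were computed.

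With the list of 1 replicate in place of the pooled list, ranges were 23.4 to 24.1% for X, 13.5 to 13.9% for both replicates, 18.5 to 18.6% for promoters, 49.8 to 50.6% for distance, 2.14 to 2.70% for the core and 14.1 to 16.4% for GAGAGA, where the value without replicate 2, 14.1%, fell below the interval of 14.9 to 21.9% around the pooled share. Keeping 1 member of each overlapping pair, also chosen after seeing the data, left both replicates at 13.7%, the core at 2.60% and GAGAGA at 18%. On build ce10 X made up 23.9% of the first 2000. The authors' thresholded list was shorter on ce10, with 31 X regions among 103 (30.1%), against 45 among 163 (27.6%) on ce11. No paired analysis was possible because the design holds a single group. Depth is unknown, so how it limits the lower ranks cannot be stated.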
